A study of Mus musculus with 14 samples.

Results

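The forkhead genes encode transcription factors that share a winged-helix DNA-binding domain. Promoter coverage by H3K27me3 was examined here for every protein-coding gene whose symbol is Fox followed by a lower-case letter and a digit, which gave 44 of the 21938 protein-coding genes of GENCODE vM21 on mouse build GRCm38 (mm10). H3K27me3, a repressive histone mark, was profiled by chromatin immunoprecipitation and sequencing (ChIP-seq) in cerebellum of C57BL/6NCrl mice at postnatal day 7 (P7), P14 and P60, with 3 libraries per stage and no transgene or treatment named for any of them. Each P7 library pooled more mice than a P14 library, each P60 library came from 1 mouse, and both sexes were used, so pool size and stage cannot be told apart. Promoter coverage is the percent of the window of 3 kb on each side of a transcription start that lay under the peaks listed for a library, taken at the gene's most covered annotated start. A promoter was called marked where 1 bp or more was covered. The tissue was not sorted by cell type, so fewer cells carrying the mark at a gene and less of the mark per cell cannot be told apart.

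H3K27me3 is written by Polycomb repressive complex 2 and gathers on the CpG-rich promoters of developmental regulators in cells that do not use them. Forkhead factors are such regulators: most are restricted to single tissues or lineages, such as the notochord and floor plate, the lens, the gut mesenchyme or regulatory T cells. A smaller number, among them the FOXK factors and FOXO factors that respond to insulin signalling, are made in most cells. In the cerebellum FOXP2 is best known from Purkinje cells, and FOXM1 from dividing progenitors.

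Promoter sequences were matched by symbol in the RefSeq table (GRCm38.p6), which held 28 of the 44 genes and gives the 250 bases before and the 50 bases from each start. The 16 genes without an entry included Foxb1, Foxc2, Foxe1, Foxf1, Foxh1, Foxj1, Foxk1, Foxl1, Foxm1, Foxn2, Foxo4, Foxo6, Foxp2, Foxq1 and Foxs1. The 5 promoters below are picked examples with differing CG content and mark. Each is printed 5′ to 3′ with every CG in capitals. Foxo1 (chr3:52268087-52268386, plus strand) was flanked by peaks on both sides at P7, Foxo3 (chr10:42276646-42276945, minus strand) and Foxk2 (chr11:121259737-121260036, plus strand) were marked in no library, and Foxi3 (chr6:70956356-70956655, plus strand) and Foxi2 (chr7:135410117-135410416, plus strand) were touched by a peak in all 3 P7 libraries.
Foxo1: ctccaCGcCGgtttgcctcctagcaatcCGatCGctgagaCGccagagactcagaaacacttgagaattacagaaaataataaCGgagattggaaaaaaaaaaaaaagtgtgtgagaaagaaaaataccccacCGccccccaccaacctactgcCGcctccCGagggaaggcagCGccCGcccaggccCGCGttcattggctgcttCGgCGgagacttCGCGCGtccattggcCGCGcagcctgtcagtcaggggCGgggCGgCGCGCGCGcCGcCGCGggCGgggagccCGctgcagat
Foxo3: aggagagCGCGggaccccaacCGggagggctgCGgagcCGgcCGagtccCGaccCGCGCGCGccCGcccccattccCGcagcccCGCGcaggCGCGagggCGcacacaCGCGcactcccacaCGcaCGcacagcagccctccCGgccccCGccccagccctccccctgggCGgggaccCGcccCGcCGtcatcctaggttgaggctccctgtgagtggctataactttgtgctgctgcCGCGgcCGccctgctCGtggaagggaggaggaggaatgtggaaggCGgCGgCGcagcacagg
Foxk2: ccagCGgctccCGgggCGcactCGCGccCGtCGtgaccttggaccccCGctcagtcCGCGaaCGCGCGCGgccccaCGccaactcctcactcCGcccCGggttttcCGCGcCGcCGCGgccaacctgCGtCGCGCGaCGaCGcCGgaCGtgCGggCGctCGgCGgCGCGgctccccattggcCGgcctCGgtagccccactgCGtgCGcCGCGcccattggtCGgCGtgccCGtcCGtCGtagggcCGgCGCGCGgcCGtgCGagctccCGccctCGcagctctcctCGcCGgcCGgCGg
Foxi3: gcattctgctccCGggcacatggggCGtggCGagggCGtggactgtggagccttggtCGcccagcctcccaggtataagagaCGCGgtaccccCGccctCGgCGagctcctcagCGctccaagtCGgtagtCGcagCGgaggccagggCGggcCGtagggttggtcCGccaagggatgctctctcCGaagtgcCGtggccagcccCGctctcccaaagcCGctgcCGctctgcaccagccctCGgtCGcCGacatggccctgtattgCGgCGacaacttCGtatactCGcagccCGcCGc
Foxi2: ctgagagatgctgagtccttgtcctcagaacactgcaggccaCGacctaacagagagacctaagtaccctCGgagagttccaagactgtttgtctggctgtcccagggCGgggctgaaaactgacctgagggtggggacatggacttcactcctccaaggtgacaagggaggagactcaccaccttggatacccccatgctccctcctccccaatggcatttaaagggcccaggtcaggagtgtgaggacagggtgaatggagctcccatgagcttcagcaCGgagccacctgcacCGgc
The motif CG reads the same on both strands. It occurred 31 times in the Foxo1 sequence, a count reached by 10.6% of the 32851 promoters in the table, and no peak of any library touched these 300 bases. Foxo3 held 35 (reached by 6.95% of promoters) and Foxk2 held 59 (0.100%), the highest count among the forkhead promoters. Foxi3 held 31. Foxi2 held only 5, a count reached by 62.0% of promoters. Peaks of every P7 library touched only the 3′ end of this sequence. They began at positions -19, 95 and -5 relative to the start in P7 replicates 1, 2 and 3 and ran downstream into the gene. After Foxk2 the highest counts were at a Foxp1 promoter (44, touched in 1 P14 and 1 P60 library) and at Foxj3 (42) and Foxj2 (37), both never marked. The median count was 22 over promoters of marked forkhead genes and 12 over those of never marked ones.

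The 9 peak lists held between 6905 and 15600 peaks covering 1.48 to 15.2 Mb, and the number of reads behind them is unknown. P60 replicates 1 and 2 and P14 replicate 1 had the narrowest peaks, with medians of 134, 149 and 269 bp against 410 to 751 bp in the other lists. Covered length therefore differed between libraries of the same stage, and its part in single results was not tested beyond the alternatives given beside them. As a check of the tissue label, mean promoter coverage of 13 granule neuron markers was 4.13% at P7 and 0.156% at P60. Over all protein-coding genes it was 4.11 and 0.701%. Of the 13, 8 were marked in 1 or more libraries, while Zic1, Zic2, Cbln3, Etv1 and Gabra6 were marked in none. Mean coverage of 12 forebrain markers was 27.8% at P7, 22.6% at P14 and 1.51% at P60. That of 9 inhibitory interneuron markers was 26.4, 18.7 and 0.991%, so high cover was not particular to the forebrain list.

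Forkhead promoters carried the mark far more often than promoters at large in the young cerebellum, and lay under few peaks at P60, as did promoters at large. In all, 30 of the 44 (68.2%) were marked in 1 or more of the 9 libraries, against 6720 of 21938 protein-coding genes (30.6%). At P7 the 3 libraries marked 30, 28 and 27 of them, at P14 26, 29 and 29, and at P60 6, 3 and 14. The P60 counts are 13.6, 6.82 and 31.8% of the 44 in replicates 1, 2 and 3. Over all protein-coding genes these P60 libraries marked 8.8, 7.05 and 11.1%. The forkhead share at P60 was thus not above that of all genes in replicate 2, and exceeded it most in replicate 3. Mean coverage over all 44 was 18.7 ± 5.07% at P7, 14.4 ± 5.85% at P14 and 2.01 ± 2.71% at P60 (SD over 3 libraries), beside 4.11 ± 1.39%, 2.44 ± 1.06% and 0.701 ± 0.554% over all protein-coding genes. Of the 30 marked genes, 27 were marked in every P7 library and 26 in every P14 library, but only Foxp2, Foxa3 and Foxj1 in every P60 library. These were the 3 marked in all 9. Of the 6720 marked protein-coding genes, 3128, 2312 and 827 were marked in every P7, P14 and P60 library. No P60 peak was seen at 15 of the 30 and at 3378 of the 6720. Among the 15 marked at P60, 9 had a peak in replicate 3 alone, so the forkhead count at P60 rests mainly on the library with the widest P60 peaks. Over all protein-coding genes 857 of the 3342 marked at P60 had a peak in replicate 3 alone. The heat map of the genes by library shows these blocks.

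**Figure D1:**
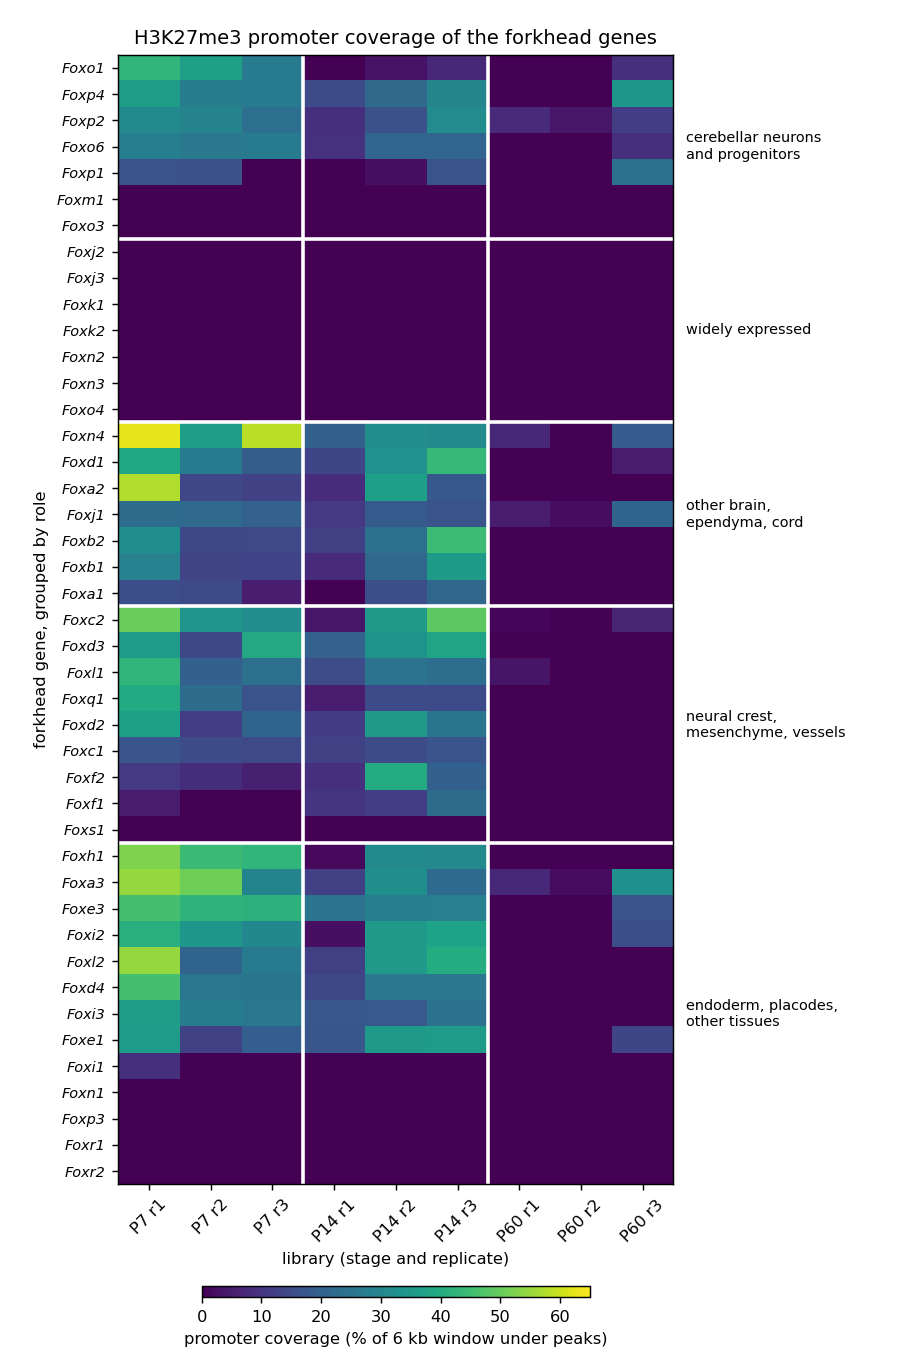
Promoter coverage (color, percent of the 6 kb window under peaks) of 43 of the 44 forkhead genes (rows, grouped by role and ordered by mean P7 coverage) in the 9 libraries (columns, r marks the replicate). The 7 widely expressed genes are at 0 throughout, the other lists are covered at P7 and P14, and at P60 cover is left mainly in replicate 3, with 6 and 3 covered genes in replicates 1 and 2.

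Stages were compared with limma over the 5120 genes marked in 2 or more libraries, and a gene passed at a p under 0.05 after Benjamini-Hochberg adjustment. Of the 44 forkhead genes, 29 passed that filter. Foxi1 had a peak in a single library and the other 14 had none. From P7 to P60 coverage fell at 20 of the 29, and 45.8% of all genes tested also fell (2347 genes). No forkhead gene rose, at an adjusted or at an unadjusted p under 0.05 (limma). Of all genes tested, 0.605% rose at the adjusted and 49 of 5120 at the unadjusted threshold. Median changes were -26.6 percentage points over the 29 and -12.0 over all 5120, but a gene that passed the filter through its P7 libraries had cover to lose. The number that fell was between 13 and 23 when single libraries were left out, and it was 13 without P7 replicate 1, when Foxa3, Foxb1, Foxc2, Foxd1, Foxd2, Foxi2 and Foxp2 no longer passed. It was 4 (Foxe3, Foxh1 and Foxi3 among them) without the 3 libraries with the narrowest peaks, a fit that leaves P60 with 1 library. Each list was also shortened to the same covered length, strongest peaks first. Only 9 forkhead genes then remained in the test, of which 2 fell (Foxa3 and Foxj1) and 1 rose (Foxp2). Shares over all genes tested under these alternatives are not given here.

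From P7 to P14 coverage fell at 2 of the 29 forkhead genes, Foxo1 and Foxh1, while 11.7% of all genes tested fell (597 genes). None rose with limma at the adjusted threshold, where 0.352% of all genes tested did. At an unadjusted p under 0.05, 2 had a positive change, beside 144 of all 5120 genes tested. From P14 to P60 coverage fell at 1 forkhead gene and at 2.07% of all genes tested (106 genes). No forkhead gene and 0% of all genes tested rose over that interval (limma). None of the 29 had a positive change at an unadjusted p under 0.05, whereas 21 had a negative change at that level. Of all 5120 genes tested, 40 had a positive and 1266 a negative change at that level. The adjusted count of 1 forkhead gene shifted most without P14 replicate 1, the P14 library with the narrowest peaks. Without it 20 forkhead genes fell from P14 to P60 at the adjusted threshold, and without P7 replicate 1 8 did. The share of all genes tested that fell in these fits is not given here. The counts are therefore not a result particular to forkhead genes. The comparisons share libraries and are not independent of each other.

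Among the 7 forkhead genes listed for cerebellar neurons and progenitors, 5 were marked. From P7 to P60 coverage fell at 3 of the 5 tested, Foxp2, Foxo1 and Foxo6, beside 45.8% of all genes tested. Foxp2 (chr6:14901349-15441977, plus strand), a repressor active in Purkinje cells and needed for vocal learning circuits, was covered over 31.2, 29.1 and 23.8% of its window in P7 replicates 1, 2 and 3. The P14 libraries gave 9.12, 16.2 and 31.5%, and the P60 libraries 7.63, 3.83 and 11.8%. Every P7 value lay above every P60 value, whereas the P14 values overlapped both. Coverage fell by 20.3 percentage points from P7 to P60 (SE 5.98, limma adjusted p = 0.0172), and this call was lost without P7 replicate 1 (adjusted p = 0.0545), P60 replicate 1 (0.0524) or P60 replicate 2 (0.0700). With all lists shortened to the same covered length Foxp2 was at 0 in the 3 P7 and 3 P14 libraries and at 4.03, 3.83 and 7.55% at P60, and the direction turned to a rise of 5.14 percentage points (limma adjusted p = 0.0250). The direction of the Foxp2 change thus depended on how the lists were scaled against each other.

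The other FOXP genes, which encode partners that can pair with FOXP2, did not pass the test at any interval and differed most between the P60 libraries. Foxp4 (chr17:47867133-47924645, minus strand) was covered over 36.2, 27.6 and 26.9% at P7, 14.9, 22.4 and 29.5% at P14, and 0, 0 and 34.4% at P60 (P7 to P60 limma adjusted p = 0.0937). P60 replicate 3 stood at the level of P7, while the other P60 libraries had no peak there, and without replicate 3 the change from P7 to P60 passed (adjusted p = 0.00419). Without the 3 libraries with the narrowest peaks its direction turned, to 4.18 percentage points (adjusted p = 0.659). Foxp1 (chr6:98925338-99522721, minus strand) gave 16.6, 16.2 and 0% at P7, 0, 2.78 and 17.0% at P14 and 0, 0 and 24.0% at P60 (adjusted p = 0.758), and the direction turned without P60 replicate 1 or 2 (1.08 percentage points each). Its cover came from different places: the peak at the most covered start lay at chr6:99520223-99521219 in P7 replicate 1 and at chr6:99027414-99028855, over another of the 22 annotated starts, in P60 replicate 3.

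Foxo1 (chr3:52268336-52353221, plus strand), an effector of insulin and growth factor signalling, showed the clearest early decline of the family. Coverage was 42.9, 37.0 and 26.7% at P7, 0, 3.13 and 7.32% at P14 and 0, 0 and 8.72% at P60. All P7 values were well above all later ones, and P14 and P60 overlapped. It fell by 32.0 percentage points from P7 to P14 (SE 5.24, limma adjusted p = 0.00416). The call was kept under 19 of 21 alternatives that gave a value, and lost on the log2 scale and without the 3 libraries with the narrowest peaks. With lists of the same covered length Foxo1 was at 0 in all 9 libraries. It could not be tested there or with peaks of −log10 q 4 or more. The change from P14 to P60 was -0.58 percentage points (adjusted p = 1). Foxo6 (chr4:120267079-120287349, minus strand), a FOXO factor expressed mainly in brain, declined later and less sharply, with 28.1, 25.9 and 26.8% at P7, 9.30, 21.1 and 21.2% at P14 and 0, 0 and 8.83% at P60. It fell by 24.0 percentage points from P7 to P60 (SE 4.93, adjusted p = 0.00307), and the step from P7 to P14 did not pass (adjusted p = 0.199). Foxo3, the close relative of Foxo1, and Foxm1, a driver of mitotic genes in dividing progenitors, were at 0 in every library.

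**Figure D2:**
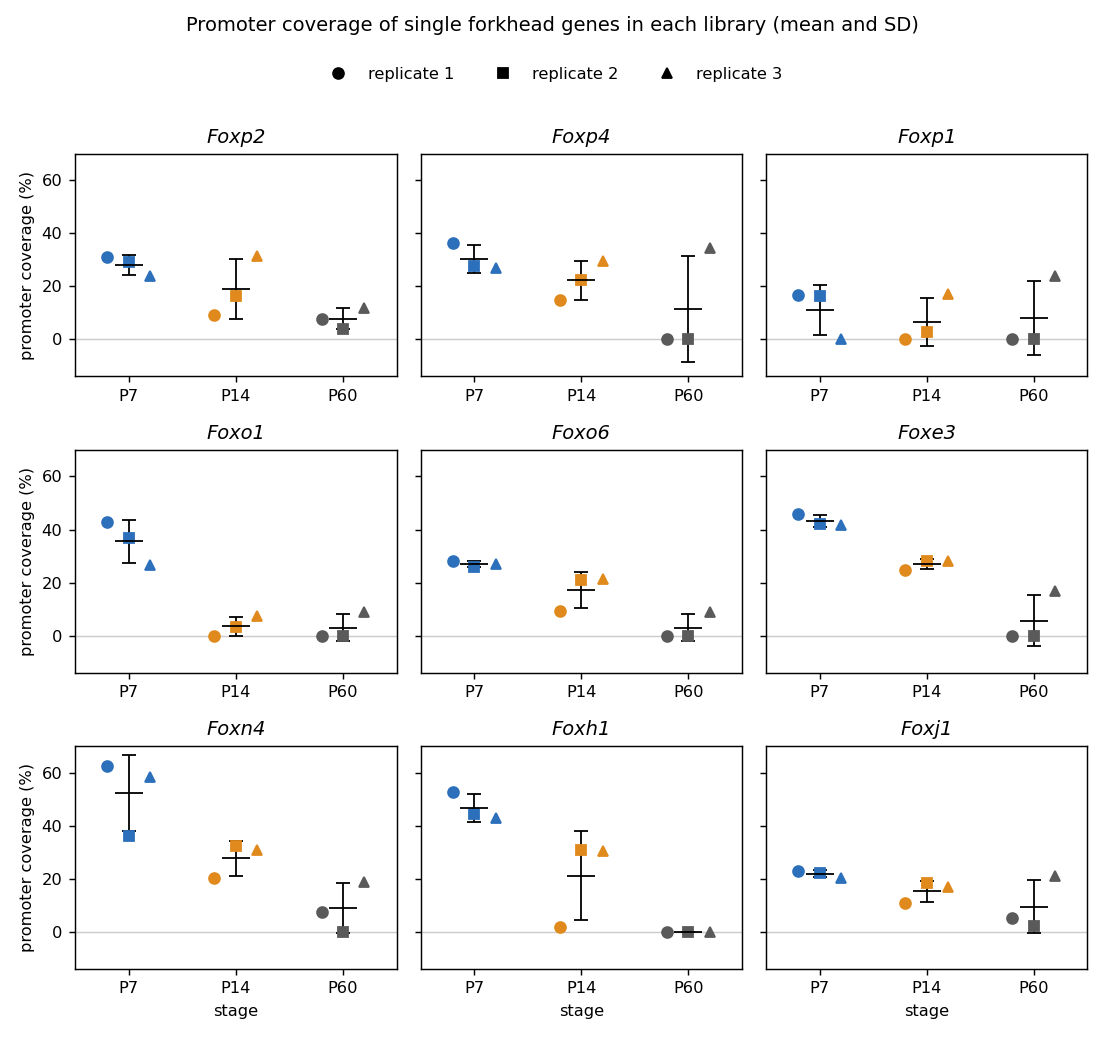
Promoter coverage (percent of the window) of 9 forkhead genes in each library, by stage, with a symbol per replicate and the mean and SD of each stage as a horizontal mark and error bar. Foxo1 lies between 26.7 and 42.9% at P7 and at most at 8.72% later, the 3 stages of Foxe3 do not overlap, and the P60 values of Foxp4, Foxp1 and Foxj1 are high in replicate 3 only.

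At P7 the peaks of most marked forkhead genes lay mainly downstream of the start. Over the 30 marked genes at P7, the bin from 500 bp to 1000 bp downstream of the 5′ start was covered at 60.6 ± 15.1% and the bin from 1000 to 1500 bp at 63.8 ± 10.99%, against 24.3 ± 7.80% for the 500 bp upstream of the start (SD over 3 libraries). At P14 the same downstream bins stood at 57.9 ± 22.1% and 50.7 ± 15.1%. Within 3 kb of the 5′ start, the upstream side held a median of 10.997% of the covered length per gene at P7. It held more than the downstream side at 3 of 30 genes, Foxa1, Foxn4 and Foxp2, and all of it only at Foxp2. At P60 it held more at 6 of the 14 genes with cover there, Foxc2, Foxd1, Foxe3, Foxn4, Foxo1 and Foxp2. In P7 replicate 1 the Foxp2 peak ran from position -3397 to position -1129 relative to the start, in bp (chr6:14897952-14900220). In P60 replicate 3, 2 peaks were left at the ends of that stretch, chr6:14898077-14898801 and chr6:14900011-14900268. Wide peaks in the P7 libraries and in P14 replicate 3 thus corresponded to a pair of narrower ones in the other P14 libraries and in all P60 libraries, at the same place.

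At Foxo1 peaks flanked the start on both sides at P7 and left the promoter sequence shown above free. The downstream peak, from 372 to 1809 bp in P7 replicate 1 (chr3:52268708-52270145), was present in all 3 P7 libraries and in no P14 or P60 library. The upstream peak, chr3:52266657-52267793 in the same library, had counterparts in all 3 P7 libraries, in P14 replicates 2 and 3 and in P60 replicate 3. Coverage that remained at Foxo1 after P7 was therefore all upstream. A further peak inside the gene, chr3:52328536-52329560 in P60 replicate 3, overlapped peaks of P60 replicate 1 and P14 replicate 3 and lay outside the promoter window.

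**Figure D3:**
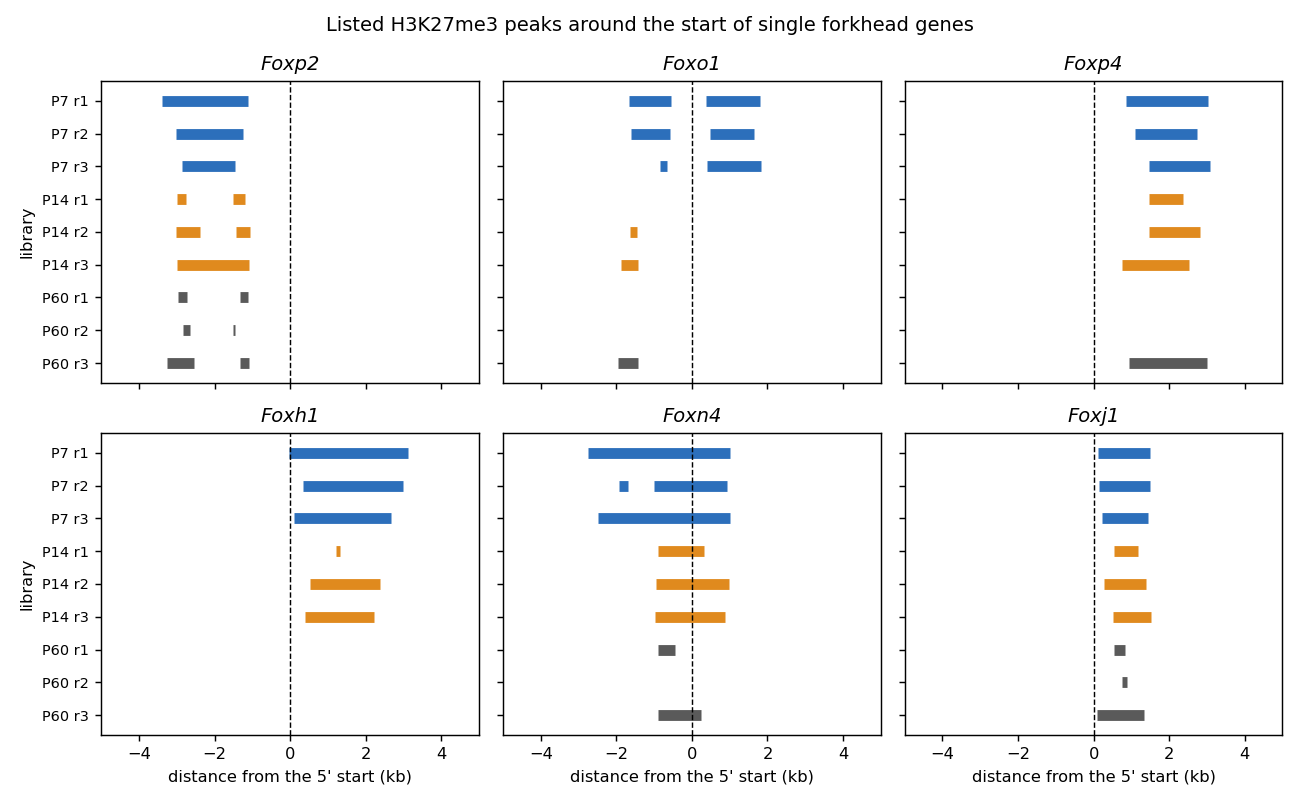
Peaks listed in each library (rows) within 5 kb of the 5′ start (dashed line, distance in kb along the direction of transcription, upstream negative) of 6 forkhead genes, with a bar per peak and colors by stage. Foxp2 peaks are all upstream in all 9 libraries, Foxo1 peaks flank the start at P7 and only the upstream one is seen later, and Foxp4 and Foxj1 peaks within 3 kb lie downstream.

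The 7 genes listed as widely expressed, Foxj2, Foxj3, Foxk1, Foxk2, Foxn2, Foxn3 and Foxo4, had no promoter cover in any of the 9 libraries. They encode factors made in most tissues, with roles that include metabolism and growth control. Their promoters were not poor in CpG sites: density over the 6 kb around the 5′ start had a median of 27.2 per kb and reached 43.0 per kb at Foxn2, against a median of 18.0 per kb over all protein-coding genes. Within 10 kb of the gene or inside it, Foxk2 had a peak in 1 library and Foxn3 in 4, all of them away from the starts. Foxo1 and Foxo3, of the FOXO group described above as made in most cells, were placed in the cerebellar list. Foxo1 was covered at a mean of 35.5% at P7 and Foxo3 was never marked. The absence of cover is thus a result for the 7 listed genes and not for all broadly made forkhead factors.

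Factors of other brain regions, of ependyma and of spinal cord formed the most widely covered list at P7, and all 8 of its genes were marked in every P7 library. From P7 to P60 coverage fell at 4 of these 8, a share near the 45.8% of all genes tested, and Foxn4, Foxd1 and Foxb1 were among them. Foxn4 (chr5:114254164-114273807, minus strand), which directs retinal progenitors and spinal V2b interneurons, had the highest P7 mean of the family, with 62.7, 36.2 and 58.3% at P7, 20.1, 32.2 and 30.9% at P14 and 7.57, 0 and 18.8% at P60. The stages did not overlap, and coverage fell by 43.6 percentage points from P7 to P60 (SE 8.21, limma adjusted p = 0.00211). With lists of the same covered length Foxn4 was at 0 in all P7 libraries and at 0, 0 and 18.8% at P60, which turned the direction (6.25 percentage points, adjusted p = 0.561), and without the 3 libraries with the narrowest peaks the call was lost (adjusted p = 0.107). The step to P14 missed the threshold (adjusted p = 0.0759).

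Foxd1 (chr13:98354242-98359305, plus strand), a factor of kidney stroma and ventral diencephalon, had 39.0, 26.6 and 19.1% at P7, 13.7, 32.8 and 43.2% at P14 and 0, 0 and 4.87% at P60. It fell by 26.6 percentage points from P7 to P60 (SE 7.58, limma adjusted p = 0.0145, and 0.0641 without P7 replicate 1). P7 and P14 could not be separated (adjusted p = 0.908). Foxj1 (chr11:116330704-116335399, minus strand), the master regulator of motile cilia in ependyma, varied least among the P7 libraries of this list, with 23.01, 22.2 and 20.4% at P7, 10.7, 18.3 and 16.7% at P14, and 5.15, 2.20 and 20.9% at P60. Its change from P7 to P60 did not pass (-12.5 percentage points, adjusted p = 0.0784). P60 replicate 3 alone stood at the P7 level, and without that library Foxj1 passed (adjusted p = 0.0107), whereas without the 3 libraries with the narrowest peaks the change was -0.96 percentage points. With lists of the same covered length Foxj1 kept 23.01, 22.2 and 20.4% at P7 and 0, 2.20 and 0% at P60, and fell (adjusted p = 0.00317). The floor plate and endoderm factors Foxa1 and Foxa2 and the hypothalamic and hindbrain factors Foxb1 and Foxb2 were at 0 in all P60 libraries, with P7 values between 4.88 and 57.6%. Of these 4 Foxb1 passed (adjusted p = 0.0460), a call kept under 7 of 21 alternatives, and Foxa2 and Foxb2, which did not pass, were called lower under 7 of 21 each.

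Factors of neural crest, mesenchyme and vessels had almost no cover at P60, and from P7 to P14 4 of the 8 tested had a negative and 4 a positive change. From P7 to P60 coverage fell at 6 of the 8 tested, Foxc1, Foxc2, Foxd2, Foxd3, Foxl1 and Foxq1, beside 45.8% of all genes tested. None of the list passed from P7 to P14 (limma), where 3 had an unadjusted p under 0.05, 1 of them negative and 2 positive. Foxc2 (chr8:121116171-121118895, plus strand), a factor of lymphatic vessels and paraxial mesoderm, had 50.1, 33.8 and 31.9% at P7, 3.87, 34.99 and 48.6% at P14 and 0.850, 0 and 6.80% at P60. P14 replicate 1 stood far below the other P14 libraries, and from P7 to P60 coverage fell by 36.1 percentage points (SE 9.84, adjusted p = 0.0119, and 0.0600 without P7 replicate 1). Foxd3 (chr4:99656299-99658622, plus strand), which specifies neural crest, gave 35.6, 14.1 and 39.3% at P7, 20.4, 33.5 and 38.0% at P14, and 0 in all P60 libraries. It fell by 29.7 percentage points from P7 to P60 (SE 7.06, adjusted p = 0.00629), and the change from P14 to P60 missed the threshold (adjusted p = 0.0502).

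Foxl1 (chr8:121127940-121130644, plus strand), a marker of intestinal mesenchyme, was covered over 42.6, 19.9 and 24.0% at P7, 15.5, 24.9 and 23.4% at P14 and 3.77, 0 and 0% at P60, and fell by 27.6 percentage points from P7 to P60 (SE 6.08, limma adjusted p = 0.00436). Foxf1 and Foxf2, factors of lung and gut mesenchyme and, for Foxf2, of brain pericytes, were the 2 forkhead genes with a positive change from P7 to P14 at an unadjusted p under 0.05. Foxf1 had 5.17, 0 and 0% at P7 against 9.68, 12.1 and 23.01% at P14, so the groups did not overlap, and was at 0 at P60. Its difference from P7 to P14 did not pass (13.2 percentage points, adjusted p = 0.0550) but was called higher under 6 of 21 alternatives, among them the fits without P7 replicate 1 and without P14 replicate 1. Foxf2 had 10.8, 8.38 and 5.70% at P7, 8.67, 40.1 and 20.1% at P14 (adjusted p = 0.161) and 0 at P60. Foxs1, a factor of pericytes and sensory neurons, was never marked.

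Several of these genes lie close together, and little of their shared spans lay under peaks at P60. Foxf1, Foxc2 and Foxl1 span 46.3 kb (chr8:121084386-121130644), of which 19.2, 10.3 and 11.4% lay under peaks in the P7 libraries, 3.63, 10.6 and 13.3% at P14 and 0.599, 0 and 0.882% at P60. Foxd2 and Foxe3, within 19.7 kb (chr4:114906282-114926013), gave 25.2, 15.6 and 18.6% at P7, 8.90, 18.7 and 13.6% at P14 and 0, 0 and 1.76% at P60. The wider span of Foxq1, Foxf2 and Foxc1 (256 kb, chr13:31556134-31812476) held between 7 and 11 peaks in each P7 and P14 library and 1 or 2 in each P60 library. P14 replicate 1 was the lowest of the P7 and P14 libraries in all 3 clusters.

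The list of factors of endoderm, placodes, gonad, thymus, immune cells, early embryo and germ line divided into covered and bare genes. From P7 to P60 coverage fell at Foxa3, Foxd4, Foxe3, Foxh1, Foxi2, Foxi3 and Foxl2, 7 of the 8 tested among its 13 genes, beside 45.8% of all genes tested. Foxn1 (thymus), Foxp3 (regulatory T cells) and the germ line genes Foxr1 and Foxr2 were never marked. Foxh1 (chr15:76668225-76669948, minus strand), which carries Nodal signals in the early embryo, had 52.6, 44.3 and 42.9% at P7, 1.77, 30.9 and 30.6% at P14, and 0 at P60. All stages were separate. Coverage fell by 46.6 percentage points from P7 to P60 (SE 7.52, limma adjusted p = 0.00116) and by 25.5 from P7 to P14 (SE 7.52, adjusted p = 0.0494). The latter call stood just under the threshold, was kept under 6 of 21 alternatives and had an adjusted p up to 0.143 when single libraries were left out. Kifc2 and Ppp1r16a start within 6 kb of Foxh1 and share its window in part.

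Foxa3 (chr7:19013284-19023538, minus strand), a liver factor, had 54.8, 50.8 and 29.2% at P7, 12.4, 32.3 and 22.6% at P14 and 7.22, 1.83 and 32.5% at P60. It fell by 31.1 percentage points from P7 to P60 (SE 9.52, limma adjusted p = 0.0203), although P60 replicate 3 lay above the lowest P7 library. The call was lost without P7 replicate 1, P7 replicate 2, P60 replicate 1 or P60 replicate 2, with adjusted p between 0.0659 and 0.0873, and without the 3 libraries with the narrowest peaks the change was -12.4 percentage points (adjusted p = 0.478). Sympk starts within 6 kb of Foxa3. Foxe3 (chr4:114925147-114926013, minus strand), the lens factor, was among the most even, with 45.8, 42.2 and 41.8% at P7, 24.8, 28.1 and 28.2% at P14 and 0, 0 and 16.9% at P60. Its 3 stages were separate, it fell by 37.6 percentage points from P7 to P60 (SE 5.93, adjusted p = 0.00105), and the step to P14 did not pass (adjusted p = 0.103). With lists of the same covered length Foxe3 was at 0 in all P7 and P60 libraries and at 24.8, 28.1 and 0% at P14. The P7 to P60 call was then lost. Foxi3, a factor of ear and tooth placodes, fell from P7 values between 26.0 and 36.4% to 0 in all P60 libraries (adjusted p = 0.000975).

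The means of the lists were as follows. Genes of cerebellar neurons and progenitors averaged 22.1, 19.4 and 14.9% in the P7 libraries and 4.75, 9.38 and 15.2% at P14, while those of neural crest, mesenchyme and vessels averaged 26.5, 14.01 and 17.0% at P7 and 9.68, 23.3 and 23.3% at P14. Stage means were 18.8 ± 3.67, 9.78 ± 5.24 and 4.73 ± 6.78% for the cerebellar list and 28.4 ± 9.13, 24.7 ± 9.20 and 2.79 ± 3.28% for the list of other brain regions at P7, P14 and P60 (SD over 3 libraries). For neural crest they were 19.2 ± 6.51, 18.8 ± 7.88 and 0.423 ± 0.386%, and for endoderm and the other tissues 22.5 ± 5.60, 15.1 ± 6.23 and 2.25 ± 3.30%. The cerebellar list had the lowest mean of the 4 covered lists at P14 and the highest at P60. In P60 replicate 3 the cerebellar list averaged 12.6% and the other 3 between 0.755 and 6.49%, whereas in replicate 1 it averaged 1.09%, below the 1.59% of the list of other brain regions. With 5 to 9 marked genes a list, several of them in clusters, these means are a description and no test of the difference between lists was made.

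**Figure D4:**
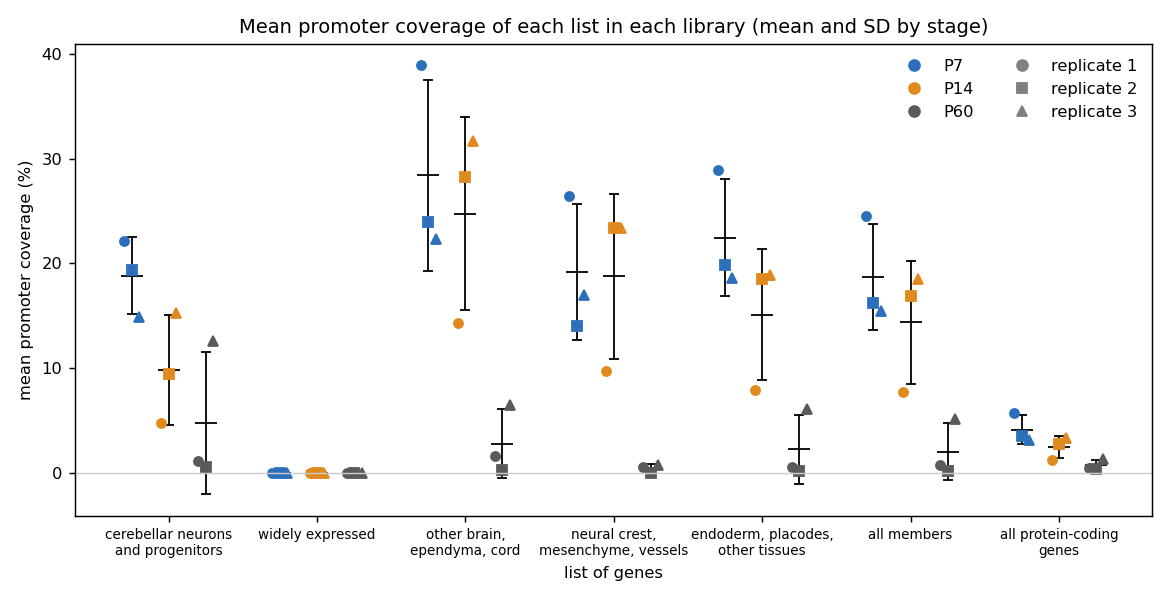
Mean promoter coverage (percent) of each list of forkhead genes, of all 44 and of all protein-coding genes in each library (points, colored by stage, a symbol per replicate), with mean and SD of each stage. Widely expressed genes are at 0, P14 replicate 1 is the lowest P14 library in every covered list, and P60 replicate 3 is the highest P60 library.

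Marked forkhead genes had denser CpG sites than unmarked ones, with exceptions on both sides. The 30 marked genes had a median of 43.5 CpG sites per kb of the window around the 5′ start (14.2 to 63.7) and the 14 never marked 26.6 (5.67 to 66.7), beside 21.3 over all marked and 16.5 over all never marked protein-coding genes. The densest window of the family was that of Foxo3, with 66.7 sites per kb, which was never marked. Foxi2 had 19.3 per kb and was marked in 7 libraries. Across the 44 genes Spearman's rho between CpG density and P7 coverage was 0.33, and among the 30 marked genes -0.15. Across all 21938 protein-coding genes it was 0.29. These are descriptions across genes, which share libraries and are not replicates.

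**Figure D5:**
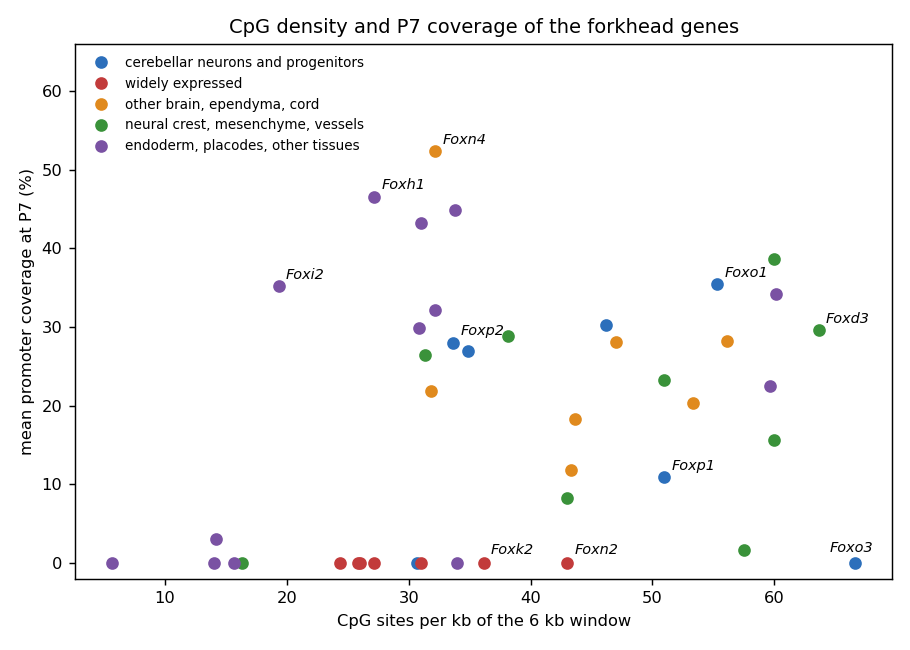
CpG sites per kb of the 6 kb window around the 5′ start (horizontal axis) and mean promoter coverage at P7 (vertical axis, percent) of 43 of the 44 forkhead genes (points, colored by role). Foxo3 and Foxn2 lie at 0 coverage with 66.7 and 43.0 CpG sites per kb, while Foxi2 reaches a mean of 35.2% with 19.3.

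Genes known to act with forkhead factors are given by list, beside 30.6% of all protein-coding genes marked and 45.8% of all genes tested lower from P7 to P60. The lists were not tested against these shares. Of 20 regulators and targets of FOXO factors 6 were marked, and from P7 to P60 coverage fell at 4 of the 5 tested, the proapoptotic genes Bbc3 and Bcl2l11, the cell cycle inhibitor Cdkn1a and Klf2. Bcl2l11 had 34.3, 33.7 and 21.4% at P7, 2.88, 0 and 9.33% at P14 and 0 at P60 (P7 to P14 limma adjusted p = 0.00773). Bbc3 also passed from P7 to P14 (adjusted p = 0.0257). None of 12 FOXM1 targets in cell division was marked. Among 13 partners and targets of FOXP factors 5 were marked, and coverage fell from P7 to P60 at 3 of the 5 tested, among them the cell adhesion gene Cntnap2 and the cortical regulator Tbr1. Of 16 genes of FOXJ1 and multiciliated cells 6 were marked, and coverage fell at 2 of the 5 tested, the ciliary dynein gene Dnah11, which also passed from P7 to P14 (limma adjusted p = 0.0120), and the ciliary regulator Rfx2.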

How the data were processed

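Reads were aligned by the authors to mm10 with STAR 2.7.2b after trimming with Trimmomatic 0.38, and broad peaks were called with MACS2 2.1 in 1 list per sample, per the labels and the submitters' processing notes. Each deposited list gives a position, fold enrichment (a ratio) over the background of the library, the −log10 of the p-value and of the q-value, and a score. All were set by the authors within a library. They were used here only to rank peaks and, in alternatives, as cut-offs (−log10 q of 2 or more, or of 4 or more). The lowest −log10 q in a deposited list was between 1.00 and 1.01. The paper's methods state a stricter FDR threshold for ChIP-seq peaks, equal to a −log10 q of 2, so the lists used here hold weaker peaks too. Whether an input control entered the peak calls is not stated for this mark in the labels or methods, and the number of reads is unknown, so no counting interval was computed.

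Promoter coverage was computed over all annotated starts of GENCODE vM21 (most covered window, 3 kb on each side) in the 9 libraries of P7, P14 and P60, and compared with limma 3.58.1 (trend and robust variance; R 4.3.3), all stages in a single fit. p-values were adjusted over all 5120 genes tested and measure the spread between the deposited libraries. The limma step was tested on simulated data, for P7 to P60. Values were drawn from a normal distribution around the P7 mean of each gene. Only genes with a P7 mean of 30% or more were lowered, and no difference in covered length between libraries was put in. Of 100 genes lowered by 10 percentage points 1 was called, and of 100 lowered by 30 points 51 were. Among 4910 genes not lowered 2 were called. In the data 45.8% of all genes tested fell and covered length differed between lists, so these rates need not hold there. A change that did not pass is still not shown to be absent. Python 3.11.15, numpy 2.4.6, pandas 2.3.3, scipy 1.17.1 and matplotlib 3.10.9 were used. CpG sites were counted on GRCm38.p6.

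Genes were grouped by textbook role. Values in every library were given for all marked genes of the cerebellar list, the 3 with the highest P7 mean in each other list, the 3 with the highest P60 mean (Foxp4, Foxa3 and Foxj1), those called higher in any comparison (none), and the 3 with the largest called change from P7 to P14 (2 were called). Foxf1, Foxf2 and Foxi3 were added after their values were seen. Members and lists were chosen with earlier results of these data known. Values of 1 forkhead gene and 1 FOXP target are not reported here, though both count in the totals. Foxl3 is on the list for endoderm and other tissues but was not found in the annotation. The 5 Kdm6b lists were not used, because each holds between 25 and 74 peaks that end past GRCm38 chromosomes, against 0 in the 9 lists used. Alternatives covered the window, starts, peak strength and width, list length, gene filter, scale, variance model, stages fitted, a replicate block and each library left out.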

Additional observations from a re-analysis of the deposited data

How the results depend on the processing

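Peak lists without read counts limit these results, since a promoter at 0 may hold signal below the authors' threshold and covered length differed between lists. The fit without a filter on genes could not be run, because limma's robust step fails when most variances are 0, and the knockout comparisons were not run. The fit without the 3 libraries with the narrowest peaks was chosen after seeing the data, and its lone P60 library is assumed to vary like the other groups. The cause of each shift was not tested.

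Counts of forkhead genes under the alternatives are given without the shares of all genes tested, so a shift is not a result about these genes. From P7 to P60 coverage fell at 20 forkhead genes. It fell at 14 with peaks of −log10 q 2 or more, where Foxb1, Foxc1, Foxd1, Foxd2, Foxd3, Foxl2 and Foxq1 no longer passed. It fell at 3 with −log10 q 4 or more, at 2 with lists of the same covered length and at 13 to 23 with single libraries left out. With the same covered length 1 rose (Foxp2), also from P14 to P60, and 2 directions turned from P7 to P60, with changes of 5.14 (Foxp2) and 6.25 (Foxn4) percentage points. From P7 to P14 the 2 calls became 1 with 5 kb windows, with only the 2 stages compared and with the replicate block, 0 with −log10 q 4 or more, the same covered length, the log2 scale and without the narrow libraries, and 1 to 2 with single libraries left out. Over that interval 1 gene was higher with 1 kb windows, a filter of 3 or more libraries, the log2 scale and no variance trend (Foxf1 in each), 1 with the same covered length (Foxe1), and 0 to 1 with single libraries left out. From P14 to P60 the 1 call became 5 with 1 kb windows, 0 with 5 kb windows, 4 with the 5′ start only, 5 with −log10 q 2 or more, 0 with 4 or more, 3 with peaks of 300 bp or more, 2 with the same covered length, 5 with a filter of 3 or more libraries, 19 on the log2 scale, 6 without the variance trend, 0 with only the 2 stages, 0 with the replicate block, 0 without the narrow libraries, and 0 to 20 with single libraries left out. Of 305 alternatives for changes of single genes from P7 to P60, 267 kept direction and side of the threshold and 6 turned direction. Beside those of Foxp2 and Foxn4, these were Foxp4 (4.18) and Foxp1 (13.1) without the narrow libraries and Foxp1 without P60 replicate 1 or 2 (1.08 each), none of them called. The Foxp1 change was between -10.94 and 1.08 with single libraries left out.

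Mean coverage of the lists shifted as follows. With 1 kb windows it was 42.7, 41.2 and 6.72% at P7, P14 and P60 for other brain regions, 27.7, 30.3 and 0.901% for neural crest, 37.1 and 26.9% at P7 and P14 for endoderm and other tissues, and 27.7 and 23.3% for all 44. With 5 kb windows it was 11.5, 15.2 and 13.04% at P7 for the cerebellar list, endoderm and all 44. With −log10 q 4 or more, P7 and P14 means were 2.48 and 2.76% (cerebellar), 8.84 and 9.37% (other brain), 1.76 and 4.42% (neural crest, 0 at P60), 10.4 and 5.93% (endoderm) and 5.43 and 4.80% (all 44). With peaks of 300 bp or more neural crest was at 0 at P60. With the same covered length they were 0 and 0.443%, 2.73 and 6.42%, 0 and 3.21% (0 at P60), 5.02 and 5.64%, and 1.98 and 3.56% in the same order.

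Replicate numbers did not pair the samples: deviations of same-numbered libraries correlated at -0.216, -0.0211 and -0.107 between P7 and P14, at -0.0631, -0.0126 and -0.0169 between P7 and P60, and at 0.249, -0.0957 and 0.201 between P14 and P60. With the replicate block 19, 1 and 0 forkhead genes fell from P7 to P60, P7 to P14 and P14 to P60.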
